A study of Mus musculus with 12 samples.

Results

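The Zfp genes of the mouse, named for zinc finger protein and a number, were followed here in embryonic stem cells whose histone H3 lysine 9 or lysine 36 methylation was targeted. A gene was included when its symbol was Zfp followed only by digits and its mean over all 12 libraries reached 1 FPKM, a unit of sequenced fragments scaled to transcript length and library size. Of 333 such symbols among 23354 genes, 64 lay below that mean and 2 at or above it were left out by name, which left 267 genes. Zfp202, Zfp583 and Zfp169 were the lowest included, with means of 1.01, 1.02 and 1.03 FPKM. Just below the limit were Zfp11, Zfp879 and Zfp9, with means of 0.933, 0.968 and 0.992 FPKM. A limit of 0.5 FPKM would have kept 297 genes, and a limit of 2 FPKM 208. The genes were thus chosen by their measured mean FPKM, so levels are given as a description and only differences between groups were tested. Zfp951 and Zfp600 were named in the choice with their earlier results in these libraries known.

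Zinc finger proteins of the C2H2 type bind DNA, and some RNA, through repeated fingers held by a zinc ion between cysteines and histidines. Many mouse members carry in addition a KRAB box, a short domain that recruits the corepressor Trim28, which in turn brings the methyltransferase Setdb1 and leads to H3K9 trimethylation, above all at retrotransposons and at imprinted regions in embryonic stem cells. The genes often sit in large clusters of related copies, and in human cells such clusters are known to carry H3K9me3 together with H3K36me3 over their bodies. Other members have no KRAB box and act in RNA decay, ribosome quality control, chromosome segregation or development.

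mRNA was sequenced from stable lines of J1, a mouse embryonic stem cell line, cultured with serum and leukemia inhibitory factor on inactivated embryonic fibroblast feeders, with 2 libraries in each of 6 groups. In the overexpression arm the lines expressed H3.1K9M or H3.1K36M, histone H3.1 with methionine in place of lysine 9 or lysine 36, and the control line expressed the wild-type histone, H3.1WT. In the knockdown arm the lines carried the hairpin shSuv39h1 or shSuv39h2, against a pair of H3K9 methyltransferases of constitutive heterochromatin, and the control line carried shNC. Methionine at either lysine acts as a dominant inhibitor, in that histones without the mutation also lose methyl groups there. The labels do not name the promoter of the histone transgenes, the hairpin sequences or the number of clones behind a line. They also do not state that the 2 libraries of a group came from separate cultures, so the p-values rest on a spread between libraries that could be technical alone.

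Suv39h2 was at 1.61 and 1.76 FPKM in shSuv39h2, against 4.80 and 4.78 FPKM in shNC, and differed by limma (adjusted p = 0.000304). Suv39h1 was at 4.91 and 5.10 FPKM in shSuv39h1, against 8.58 and 7.52 FPKM in shNC, which missed the threshold (limma, adjusted p = 0.0877). Suv39h1 was also lower in H3.1K36M, at 6.92 and 7.58 FPKM, against 10.3 and 12.2 FPKM in H3.1WT (limma, adjusted p = 0.0163). In H3.1K9M neither gene differed from H3.1WT (limma, adjusted p = 0.971 for Suv39h1 and 0.676 for Suv39h2). Depth was close to 42.4 to 55.9 fragments per FPKM of a 2 kb transcript in all libraries, an estimate from the steps between low values. The 10 stem cell markers were all at 13.7 FPKM or more in every library. The summed FPKM of 30 fibroblast markers ran from 1843 to 3633 in H3.1K9M, 2357 to 2384 in H3.1K36M and 1260 to 2010 in H3.1WT, and from 1012 to 1564 in shSuv39h1, 1566 to 2001 in shSuv39h2 and 1439 to 1937 in shNC, with 1 marker at 0 in 1 shSuv39h1 library and none at 0 elsewhere. Fewer cells of a type and less RNA per cell cannot be told apart in such bulk libraries.

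Most of the Zfp genes were expressed at low levels. Their median mean was 3.68 FPKM, against 8.89 FPKM over the 13109 tested genes, and 231 of the 267 reached 1 FPKM in all 12 libraries. Only 46 had a mean of 10 FPKM or more and 4 of 50 FPKM or more. Zfp57, a KRAB protein that binds a methylated motif and keeps the methylation of imprinted regions, was the highest at 145 FPKM. It was followed by Zfp207, which helps kinetochores attach to the spindle, at 86.4 FPKM, by Zfp428 at 69.7 FPKM and by Zfp106, an RNA-binding protein needed by motor neurons and muscle, at 55.4 FPKM. Below these stood the nucleolar protein Zfp330 at 48.5 FPKM, Zfp710 at 40.2 FPKM, Zfp622, a factor of the large ribosomal subunit, at 38.0 FPKM, Zfp219 at 34.8 FPKM, Zfp740 at 31.3 FPKM and Zfp598, a ubiquitin ligase that senses collided ribosomes, at 31.2 FPKM. Of these 10 genes, Zfp57 alone carried the KRAB pattern.

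The proteins translated from the annotated transcripts were searched for C2H2 fingers and for the KRAB A box. A protein was annotated for 266 of the genes, and 256 of these had at least 1 finger, up to 36 in a single protein. The KRAB pattern was found in 136 and not in 130, though the search can miss boxes that have drifted from the consensus. Genes with the KRAB pattern encoded a median of 12 fingers and had a median mean of 2.70 FPKM, against 7 fingers and 6.22 FPKM in those without it. By finger number, the median mean was 8.64 FPKM for 48 genes with 0 to 4 fingers, 4.44 FPKM for 76 with 5 to 9, 2.65 FPKM for 93 with 10 to 14 and 3.30 FPKM for 49 with 15 or more. FPKM is a level per length, so transcript size does not enter this order directly, and the levels were what chose the genes. Of the 10 proteins with no C2H2 finger, Zfp36 is the RNA-decay factor tristetraprolin with fingers of another type, and Zfp503 and Zfp703 belong to a small family of corepressors.

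**Figure D1:**
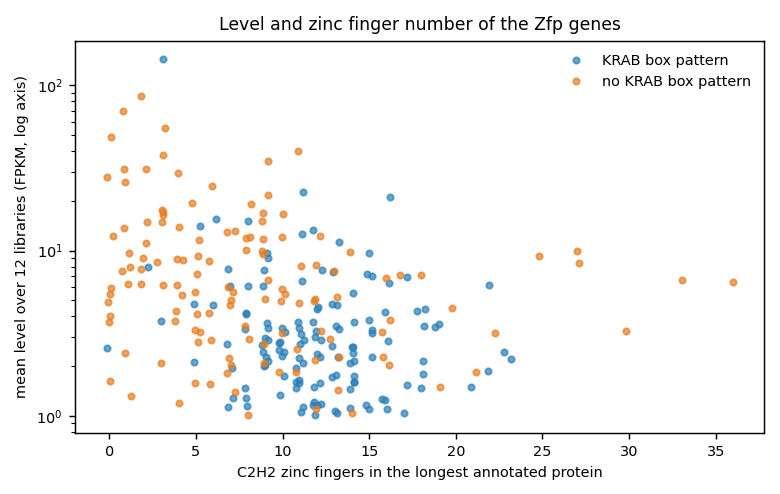
Mean FPKM over 12 libraries (vertical, log axis) of the 266 Zfp genes with an annotated protein, by the number of C2H2 zinc fingers in that protein (horizontal, points spread slightly sideways), with KRAB-pattern genes in blue and others in orange. Zfp57 at 145 FPKM is the single KRAB-pattern gene above 50 FPKM, and the median falls from 8.64 FPKM at 0 to 4 fingers to 2.65 FPKM at 10 to 14.

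Chromosome 7 held 68 of the genes, chromosome 17 held 33 and chromosome 8 held 22. With neighbours linked at up to 500 kb and at least 4 genes asked for, 15 clusters held 106 genes, 78 of them with the KRAB pattern, while 58 of the 161 genes outside clusters had it. Clustered genes had a median mean of 2.79 FPKM, against 5.09 FPKM outside. A promoter, taken as 250 bases before to 50 after the gene's start in RefSeq (GRCm38.p6), was available for 215 of the genes. It held a median of 11 CpG in KRAB-pattern genes, 20 in the others and 21 over all 9668 tested genes with an entry. Motifs were searched as exact letters on both strands. The 11-letter core that Zfp143 binds lay in 5 of the 215 Zfp promoters, 2.33%, against 0.714% of those of tested genes and 0.286% of all 32851 promoters. The 10-letter palindrome of the NRF1 motif lay in 9 of the Zfp promoters, 4.19%, against 2.11% of those of tested genes and 0.971% of all promoters. A 10-letter palindrome common in housekeeping promoters, with the CGCG core, lay in 1 of the Zfp promoters, 0.465%. It lay in 1.08% of those of tested genes and 0.466% of all promoters. The Zfp counts are small and were not tested. None of these motifs contains another, and a match describes letters only.

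Zfp951 differed most among the groups. It is a KRAB gene with 10 fingers on the minus strand of chromosome 5 (GRCm38, chr5:104813169-104860070), and none of the 100-base windows of its transcript recurred in another annotated gene. Its level was 0.916 and 0.686 FPKM in H3.1K9M and 3.90 and 4.14 FPKM in H3.1K36M, against 3.70 and 3.63 FPKM in H3.1WT. In the knockdown arm it was 2.40 and 1.83 FPKM in shSuv39h1 and 0.173 and 0.537 FPKM in shSuv39h2, against 3.48 and 4.67 FPKM in shNC. Both H3.1K9M libraries and both libraries of either hairpin thus lay below both libraries of their control, while H3.1K36M lay slightly above H3.1WT. These levels stood for roughly 67 and 56 fragments in H3.1K9M and 253 and 240 in H3.1WT, and for 13 and 42 in shSuv39h2 and 214 and 369 in shNC.

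By the ratio of mean FPKM, Zfp951 was 4.58-fold lower in H3.1K9M, with 0.801 ± 0.162 FPKM against 3.67 ± 0.0516 FPKM in H3.1WT (SD, n = 2 each), and the log2 change was -1.38 with a standard error of 0.165 (limma, adjusted p = 0.0178). It was 11.5-fold lower in shSuv39h2, with 0.355 ± 0.257 FPKM against 4.07 ± 0.839 FPKM in shNC (SD, n = 2 each), at a log2 change of -1.91 (limma, adjusted p = 0.00034). All log2 changes are on the scale of log2(FPKM + 1), which understates low levels, and all n are 2 libraries a group. In shSuv39h1 the mean was 2.11 ± 0.403 FPKM and the log2 change against shNC -0.70, which did not pass (limma, adjusted p = 0.174). In H3.1K36M it was 4.02 ± 0.171 FPKM, at a log2 change of 0.11 against H3.1WT (limma, adjusted p = 0.763). Tested directly, shSuv39h2 was below shSuv39h1 by a log2 change of -1.21 (limma, adjusted p = 0.00472) and H3.1K36M above H3.1K9M by 1.48 (limma, adjusted p = 0.000701).

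The order of the group means was shSuv39h2, H3.1K9M, shSuv39h1, H3.1WT, H3.1K36M and shNC from low to high. The 3 highest were within 3.48 to 4.67 FPKM in every library, and the control lines did not differ (log2 change of H3.1WT over shNC -0.11, limma, adjusted p = 0.832). The call in shSuv39h2 held in all 12 alternatives, with adjusted p from 0.000147 to 0.00652. The call in H3.1K9M was lost in 6 of 12, with adjusted p up to 0.171 when H3.1WT replicate 1 was left out and 0.083 when replicate 2 was. With the mean of the fibroblast markers added to the model, an alternative picked once the values were known, the log2 change in H3.1K9M was -1.505 (limma, adjusted p = 0.0192).

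The promoter of Zfp951 is shown because it belongs to the member that moved most. Its 8 CpG, in capitals, are few beside the 21 of the median tested gene but equal the lower quartile of KRAB-pattern genes, whose median is 11 (RefSeq, GRCm38.p6, chr5:104859978-104860277, minus strand).
Zfp951: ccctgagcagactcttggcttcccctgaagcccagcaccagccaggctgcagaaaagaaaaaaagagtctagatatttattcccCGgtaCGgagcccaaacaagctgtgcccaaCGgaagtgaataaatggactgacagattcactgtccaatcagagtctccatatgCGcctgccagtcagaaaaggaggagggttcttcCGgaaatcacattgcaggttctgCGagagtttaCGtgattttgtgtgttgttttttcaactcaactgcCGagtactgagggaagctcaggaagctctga

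The genes near Zfp951 were not called lower with it. Within 500 kb, 4 other genes had a mean of at least 1 FPKM, Spp1, Pkd2, BC005561 and D930016D06Rik, and none was called lower in any of the 7 comparisons. In shSuv39h2, where Zfp951 fell, all 4 had a log2 change above 0 against shNC, and D930016D06Rik rose to 4.15 ± 0.0588 FPKM, against 2.96 ± 0.223 FPKM in shNC (limma, adjusted p = 0.0483). Of all tested genes 57.3% lay above 0 there, 5.35% were called higher and 4.69% lower. None of the 3 neighbours with an annotated protein carried the KRAB pattern. These neighbours were looked at after the values of Zfp951 were known.

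**Figure D2:**
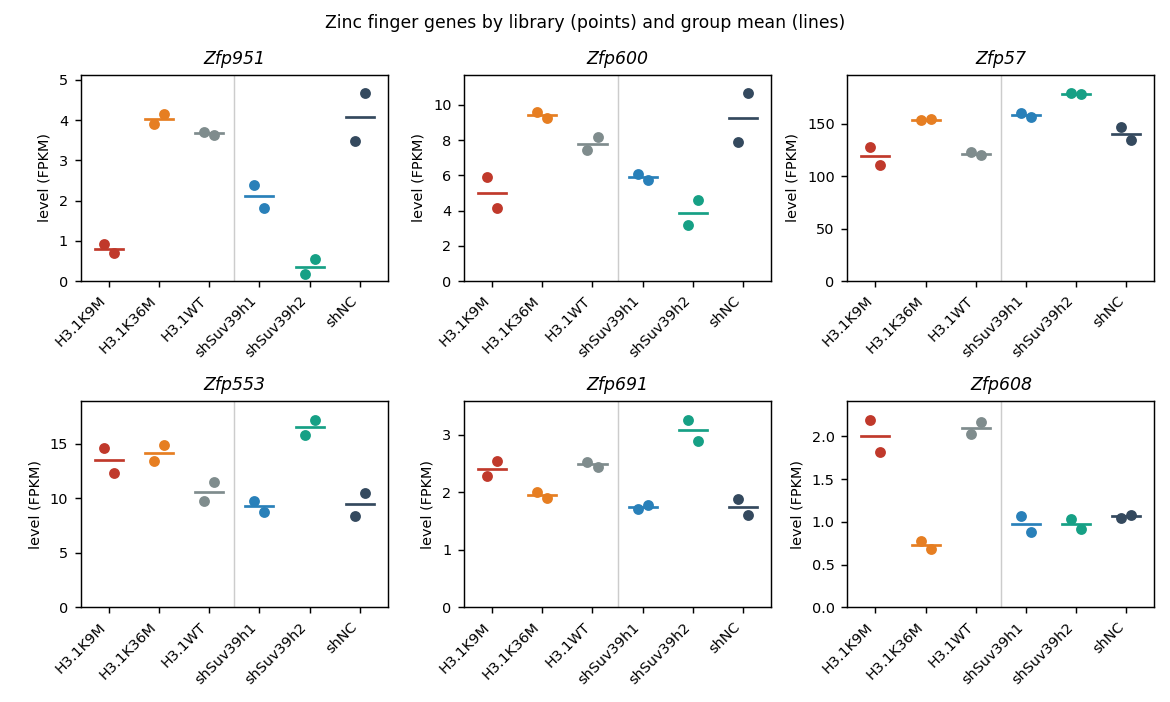
FPKM (vertical, from 0) of Zfp951, Zfp600, Zfp57, Zfp553, Zfp691 and Zfp608 in each of 12 libraries (points) with the mean of the 2 libraries of a group (lines), overexpression arm left and knockdown arm right of the grey line. Zfp951 lies under 1 FPKM in H3.1K9M and shSuv39h2 alone, and Zfp608 is lowest in H3.1K36M.

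Zfp600, a KRAB gene with 17 fingers at chr4:146156824-146198755 (GRCm38, plus strand), showed the second largest range. It was at 5.89 and 4.14 FPKM in H3.1K9M and 9.57 and 9.27 FPKM in H3.1K36M, against 7.41 and 8.16 FPKM in H3.1WT. In the knockdown arm it was at 6.05 and 5.76 FPKM in shSuv39h1 and 3.17 and 4.60 FPKM in shSuv39h2, against 7.87 and 10.6 FPKM in shNC. The libraries of H3.1K9M and of both hairpins lay below those of their controls without overlap.

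Zfp600 fell 2.38-fold in shSuv39h2 by mean FPKM, at a log2 change of -1.07 with a standard error of 0.183 (limma, adjusted p = 0.00769), a call lost without shSuv39h2 replicate 1 (adjusted p = 0.0608). In shSuv39h1 its log2 change was -0.56 (limma, adjusted p = 0.327), in H3.1K9M -0.56 (limma, adjusted p = 0.313) and in H3.1K36M 0.25 (limma, adjusted p = 0.481). Set against each other, H3.1K36M exceeded H3.1K9M by a log2 change of 0.81 (limma, adjusted p = 0.0269), and shSuv39h2 lay under shSuv39h1 by -0.52, which did not pass (limma, adjusted p = 0.134). Of the 100-base windows of its transcript, 68.5% recurred in 6 other annotated genes, so its FPKM depends on how the authors' software shared such fragments between copies. Its promoter is shown as the other member that fell by over 1 log2 unit, with 5 CpG in capitals (RefSeq, GRCm38.p6, chr4:146156577-146156876, plus strand).
Zfp600: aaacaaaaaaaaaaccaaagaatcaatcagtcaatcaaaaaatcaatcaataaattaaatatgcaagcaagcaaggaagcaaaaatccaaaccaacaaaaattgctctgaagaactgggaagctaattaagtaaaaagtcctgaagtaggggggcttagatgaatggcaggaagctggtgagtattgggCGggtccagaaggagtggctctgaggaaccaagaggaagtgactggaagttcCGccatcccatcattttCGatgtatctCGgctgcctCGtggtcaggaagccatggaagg

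Zfp600 lies among related genes that carry other names. Within 500 kb, 7 further genes had a mean of at least 1 FPKM, and all 4 of them with an annotated protein carried the KRAB pattern. In shSuv39h2, 6 of the 7 were below shNC and 4 fell: Gm13247 to 4.96 ± 1.81 FPKM, against 13.7 ± 5.25 FPKM in shNC (log2 change -1.29, limma, adjusted p = 0.0135), Gm13238 at -0.75 (adjusted p = 0.0203), Gm13242 at -0.65 (adjusted p = 0.0496) and the pseudogene Znf41-ps at -0.65 (adjusted p = 0.0133). All 7 had a log2 change below 0 in H3.1K9M, with a median of -0.47, and all 7 in shSuv39h1, with a median of -0.29, and none of these passed. In H3.1K36M 5 of 7 were below 0, with a median of -0.10. Of all tested genes 4.69% were called lower in shSuv39h2. The share of all tested genes above 0 was 57.3% in shSuv39h2, 47.6% in H3.1K9M, 61.3% in shSuv39h1 and 56% in H3.1K36M. Shared sequence is common there too, with 77.9% of the windows of Gm13051 and 77.3% of those of Znf41-ps found in other genes, so the 8 values are not independent. The neighbours were examined after the values of Zfp600 were known.

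**Figure D3:**
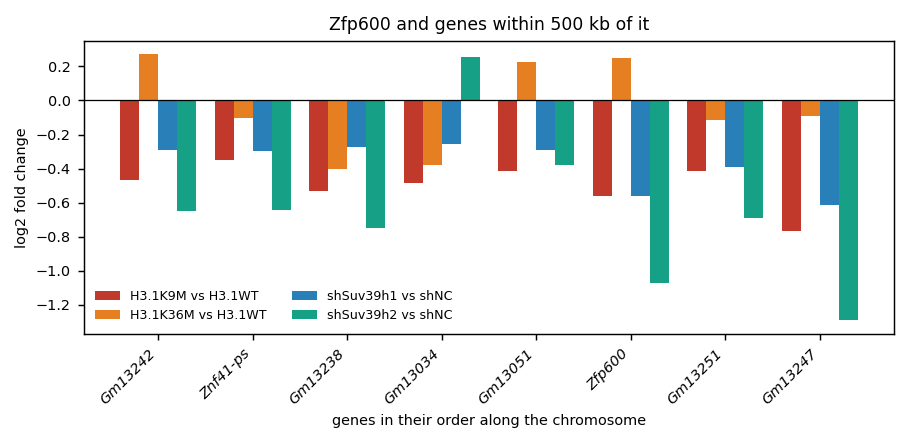
Log2 fold change on log2(FPKM + 1) (bars, vertical axis) of Zfp600 and the 7 genes within 500 kb of it with a mean of at least 1 FPKM, in their order along the chromosome, for H3.1K9M and H3.1K36M against H3.1WT and for shSuv39h1 and shSuv39h2 against shNC. In shSuv39h2 Gm13034 alone lies above 0, and Gm13247 and Zfp600 reach -1.29 and -1.07.

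Across all members, the H3.1K9M comparison, which asks what lower H3K9 methylation does to these transcripts, called Zfp951 and no other. No Zfp gene was called higher, where 0.0229% of all tested genes were, and 1 was called lower, where 0.29% of all tested genes were. In all, 0.375% of the Zfp genes and 0.313% of all tested genes were called. At an unadjusted p under 0.05 there were 13 of 267, or 4.87%, against 11.2% of all tested genes. The median log2 change was -0.015 for the Zfp genes and -0.010 for all tested genes, and 114 of 267 lay above 0, 42.7%, against 47.6%. The H3.1K9M libraries lay wholly above those of H3.1WT for 11.6% of the Zfp genes and wholly below for 18%, against 14.6% and 20.6% of all tested genes. KRAB-pattern genes had a median of -0.033 and the others 0.0042. The median of all Zfp genes changed sign, to 0.0017, under median-of-ratios scaling. All 29 tested fibroblast markers had a log2 change above 0, with a median of 0.73 and none called. The count of lower calls moved to 0 without either H3.1WT library and to 2 without H3.1K9M replicate 2.

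In H3.1K36M against H3.1WT, which asks the same of H3K36 methylation, 1 Zfp gene rose and 4 fell. Among all tested genes 3.1% were called higher and 1.74% lower, and in all 1.87% of the Zfp genes were called, against 4.84% of all tested genes. Both libraries of H3.1K36M lay above both of H3.1WT for 33.7% of the Zfp genes and below for 25.1%, against 38.2% and 27.6% of all tested genes. At an unadjusted p under 0.05 there were 27 Zfp genes, 10.1%, against 20.8% of all tested genes. Zfp608, a paralog of Zfp609, was at 0.780 and 0.687 FPKM in H3.1K36M, against 2.03 and 2.17 FPKM in H3.1WT. It was thus well below its control in both libraries, 2.86-fold by mean FPKM, at a log2 change of -0.84 (limma, adjusted p = 0.00324). In H3.1K9M it stood at 2.19 and 1.82 FPKM, a range that spanned both H3.1WT libraries, with no call (log2 change -0.05, limma, adjusted p = 0.897).

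Zfp869, a KRAB gene, was at 3.36 and 3.53 FPKM in H3.1K36M, against 5.36 and 5.26 FPKM in H3.1WT (log2 change -0.50, limma, adjusted p = 0.0311). Zfp523, the mouse counterpart of human ZNF76 and a paralog of Zfp143, was at 4.55 and 4.39 FPKM in H3.1K36M, against 6.42 and 5.97 FPKM in H3.1WT (log2 change -0.39, limma, adjusted p = 0.0323). Zfp612, also with a KRAB box, was at 0.680 and 0.814 FPKM in H3.1K36M, against 1.52 and 1.56 FPKM in H3.1WT (log2 change -0.54, limma, adjusted p = 0.0373). None of the 3 pairs of groups overlapped, which adds nothing to calls made on the same libraries. The falls were between 1.39-fold and 2.06-fold by mean FPKM.

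Zfp57 was the gene that rose in H3.1K36M. It was at 154 FPKM in both H3.1K36M libraries, against 123 and 120 FPKM in H3.1WT, with no overlap (log2 change 0.34, limma, adjusted p = 0.0471). That call sat at the threshold and was lost under median-of-ratios and quantile scaling, each of which left 0 Zfp genes higher and 6 lower. Over all tested genes quantile scaling gave 317 higher and 273 lower, against 406 and 228 as deposited. Leaving out any one library of the pair of groups left 0 higher, and 1 lower without H3.1WT replicate 1 or replicate 2 and 0 lower without either H3.1K36M library. All 29 tested fibroblast markers had a log2 change above 0, with a median of 0.72 and 3 called higher, and with their mean as a covariate 2 Zfp genes were called higher and 4 lower. Zfp57 (limma, adjusted p = 0.152), Zfp523 (adjusted p = 0.0781) and Zfp869 (adjusted p = 0.103) were not among them, while Zfp608 (adjusted p = 0.00398) and Zfp612 (adjusted p = 0.0224) were. Of the 10 stem cell markers 8 had a log2 change above 0, with a median of 0.13, and none was called lower. The 2 called higher were Nanog at 0.97 (limma, adjusted p = 0.0129) and Tfcp2l1 at 0.89 (limma, adjusted p = 0.00534). Their part in the Zfp calls was not tested. The median log2 change of all Zfp genes was 0.027, against 0.032 for all tested genes, and it was -0.00090 after median-of-ratios scaling.

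H3.1K36M and H3.1K9M were also tested against each other. Here 6 Zfp genes were higher and 5 lower in H3.1K36M, where 5.57% and 2.67% of all tested genes were, which makes 4.12% of the Zfp genes called, against 8.24%. The groups did not overlap for 28.8% of the Zfp genes that were higher and 16.9% that were lower, against 31.5% and 20.5% of all tested genes. Besides Zfp951 and Zfp600, the higher ones were Zfp59 at 9.70 and 8.85 FPKM in H3.1K36M, against 4.49 and 4.10 FPKM in H3.1K9M (limma, adjusted p = 0.0212), Zfp296, a protein known to help reprogramming, at 33.3 and 30.5 FPKM against 20.0 and 17.9 FPKM in H3.1K9M (limma, adjusted p = 0.0305), Zfp57 (log2 change 0.37, adjusted p = 0.0246) and Zfp958 (log2 change 0.58, adjusted p = 0.017). Lower in H3.1K36M were Zfp608 at -0.79, Zfp523 at -0.52, Zfp869 at -0.47, Zfp532 at -0.56 and Zfp395 at -0.48, with limma adjusted p from 0.00246 to 0.0445. No pair of groups overlapped for any of the 11 genes, which adds nothing to calls made on the same libraries. Of the 10 stem cell markers 4 were called higher in H3.1K36M than in H3.1K9M and none lower, with a median log2 change of 0.35, and their part in these calls was not tested. Zfp958, Zfp532 and Zfp395 are named after their values were seen. Counts without 1 library ran from 1 to 9 higher and 1 to 10 lower, with 1 and 1 without H3.1K36M replicate 1 or replicate 2, 9 and 10 without H3.1K9M replicate 1 and 7 and 7 without H3.1K9M replicate 2. Median-of-ratios scaling gave 5 Zfp genes higher and 7 lower, and over all tested genes 542 higher and 453 lower, against 730 and 350 as deposited.

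The shSuv39h1 comparison, which asks about the weaker of the knockdowns by its target's level, called no Zfp gene in either direction. Among all tested genes 0.0839% were called higher and 0.061% lower, 0.145% together, and 15 Zfp genes, or 5.62%, had an unadjusted p under 0.05, against 10.6% of all tested genes. Both shSuv39h1 libraries lay above both shNC libraries for 26.6% of the Zfp genes and below for 5.24%, against 26.8% and 12.7% of all tested genes. The smallest p belonged to Zfp951, described above, to Zfp239, Zfp94 and Zfp600. Zfp239 was at 6.25 and 6.85 FPKM in shSuv39h1, against 2.92 and 5.22 FPKM in shNC (log2 change 0.61, limma, adjusted p = 0.272). Zfp94 was at 1.88 and 1.64 FPKM in shSuv39h1, against 1.09 and 1.29 FPKM in shNC (log2 change 0.33, limma, adjusted p = 0.309). All 29 tested fibroblast markers had a log2 change below 0 in shSuv39h1, with a median of -0.42 and none called. With the mean of these markers as a covariate no Zfp gene was called either, the log2 change of Zfp951 was -0.62 (limma, adjusted p = 0.168) and that of Zfp600 -0.42 (limma, adjusted p = 0.298). In Zfp239 and Zfp94 the shNC libraries were the low ones, and shNC replicate 1 the lowest of all 12.

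In shSuv39h2 against shNC, the comparison with the most calls, 17 Zfp genes rose and 3 fell. Of all tested genes 5.35% were called higher and 4.69% lower, so the share of Zfp genes called was 7.49%, against 10% of all tested genes, with 6.37% higher and 1.12% lower. At an unadjusted p under 0.05 there were 60 Zfp genes, 22.5%, against 25.8% of all tested genes. The 3 that fell were Zfp951, Zfp600 and Zfp229, all with the KRAB pattern, which 136 of the 266 Zfp genes with a protein carried. The 17 that rose lay on 10 chromosomes, 6 of them carried the KRAB pattern and 7 lay in clusters, and their increases were modest, from 1.25-fold to 2.26-fold by mean FPKM. The groups did not overlap in any of the 20, but these genes were picked by a test on the same libraries, so this adds nothing to the calls. Of all Zfp genes 40.1% lay wholly above shNC and 8.99% wholly below, against 29.5% and 21.3% of all tested genes.

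Zfp27 had the largest increase. It was at 2.66 and 2.70 FPKM in shSuv39h2, against 0.879 and 1.49 FPKM in shNC (log2 change 0.77, limma, adjusted p = 0.0122). Zfp553 was at 15.8 and 17.2 FPKM in shSuv39h2, against 8.39 and 10.5 FPKM in shNC (log2 change 0.75, limma, adjusted p = 0.00846). In Zfp27 the spread within shNC was wide, with replicate 1 the lower, whereas Zfp553 was above every library of the other 5 groups in both shSuv39h2 libraries.

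Zfp764 and Zfp553 lie in the same cluster on chromosome 7, the one cluster in which more than 1 gene rose. Zfp764, a KRAB gene, was at 2.46 and 3.21 FPKM in shSuv39h2, against 1.30 and 1.69 FPKM in shNC (log2 change 0.62, limma, adjusted p = 0.0226). All 9 Zfp genes of that cluster had a log2 change above 0, with a median of 0.28, and the other 7 did not pass. Of all Zfp genes 72.3% lay above 0, against 57.3% of all tested genes. Against the same shNC libraries 8 of the 9 were also above 0 in H3.1WT and in shSuv39h1. The cluster medians there were 0.27 and 0.17. In shSuv39h2 against shSuv39h1 the median was 0.045, with 7 above 0. The part of the shNC libraries in this rise was not tested.

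Zfp691 was at 3.26 and 2.89 FPKM in shSuv39h2, against 1.88 and 1.60 FPKM in shNC (log2 change 0.57, limma, adjusted p = 0.00919). Zfp740 was at 38.6 and 41.4 FPKM in shSuv39h2, against 26.7 and 30.1 FPKM in shNC (log2 change 0.48, limma, adjusted p = 0.0103). Both shSuv39h2 libraries stood above both shNC libraries in each, and these genes and Zfp553 were also higher when shSuv39h2 was tested against shSuv39h1. The KRAB genes Zfp760, at 0.56, Zfp12, at 0.44, and Zfp810, at 0.41, rose with adjusted p from 0.0187 to 0.0371 by limma. Zfp787 rose by a log2 change of 0.50, and Zfp746, known as PARIS, a target of the ligase Parkin, by 0.42. The search found no KRAB pattern in these, which does not show that they lack a KRAB box.

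Some of the genes that rose are known from embryonic stem cells or from translation. Zfp57 was at 179 and 178 FPKM in shSuv39h2, against 147 and 134 FPKM in shNC (log2 change 0.34, limma, adjusted p = 0.0282), and its call was lost under both rescalings. Zfp706, which was found in screens for exit from the pluripotent state, rose by 0.36 (limma, adjusted p = 0.0428), Zfp335, a factor of neural progenitors, by 0.37 (limma, adjusted p = 0.0282) and Zfp598 by 0.32 (limma, adjusted p = 0.0417). Zfp598 also lost its call under both rescalings, at adjusted p = 0.0592 and 0.103 by limma, and Zfp706 under median-of-ratios scaling, at 0.0543. In each of these the shSuv39h2 libraries stood above both shNC libraries.

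Zfp229, the third gene that fell, was at 2.84 and 3.15 FPKM in shSuv39h2 and 5.65 and 4.52 FPKM in shSuv39h1, against 4.81 and 4.59 FPKM in shNC (log2 change in shSuv39h2 -0.51, limma, adjusted p = 0.024). It is a KRAB gene with 16 fingers in a cluster of 14 Zfp genes on chromosome 17, where its close neighbour Zfp760 rose. The shSuv39h2 libraries were the lowest of all 12.

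The promoters of Zfp553 and Zfp740 are shown beside those of Zfp951 and Zfp600, because they rose against both shNC and shSuv39h1 and hold more CpG, 23 and 54, again in capitals (RefSeq, GRCm38.p6, chr7:127232811-127233110 and chr15:102203750-102204049, both plus strand). Zfp691 also rose against both and has 21 CpG, and Zfp229, which fell, has 8, but neither is shown. The contrast between the shown promoters is thus partly made by the choice. Over the genes called in shSuv39h2, promoter CpG ranged from 1 to 54 with a median of 21 in 14 that rose, and from 5 to 8 in the 3 that fell, a description with no test. The KRAB pattern goes with this contrast, as all 3 that fell carried it but only 6 of the 17 that rose. Its genes have a median of 11 CpG, against 20 without it. Zfp27, with the largest increase, has 1 CpG.
Zfp553: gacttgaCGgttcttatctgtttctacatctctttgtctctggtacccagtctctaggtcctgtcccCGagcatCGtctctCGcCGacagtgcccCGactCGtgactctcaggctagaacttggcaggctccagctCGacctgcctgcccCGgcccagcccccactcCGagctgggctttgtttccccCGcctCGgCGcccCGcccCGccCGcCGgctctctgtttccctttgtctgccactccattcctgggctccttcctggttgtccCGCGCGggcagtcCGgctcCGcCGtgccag
Zfp740: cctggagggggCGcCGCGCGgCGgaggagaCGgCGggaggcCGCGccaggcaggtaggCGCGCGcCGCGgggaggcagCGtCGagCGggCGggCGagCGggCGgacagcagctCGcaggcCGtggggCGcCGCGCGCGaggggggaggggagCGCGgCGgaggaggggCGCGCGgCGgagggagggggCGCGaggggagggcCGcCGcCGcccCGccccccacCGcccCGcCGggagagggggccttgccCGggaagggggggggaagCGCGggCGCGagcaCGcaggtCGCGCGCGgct

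**Figure D4:**
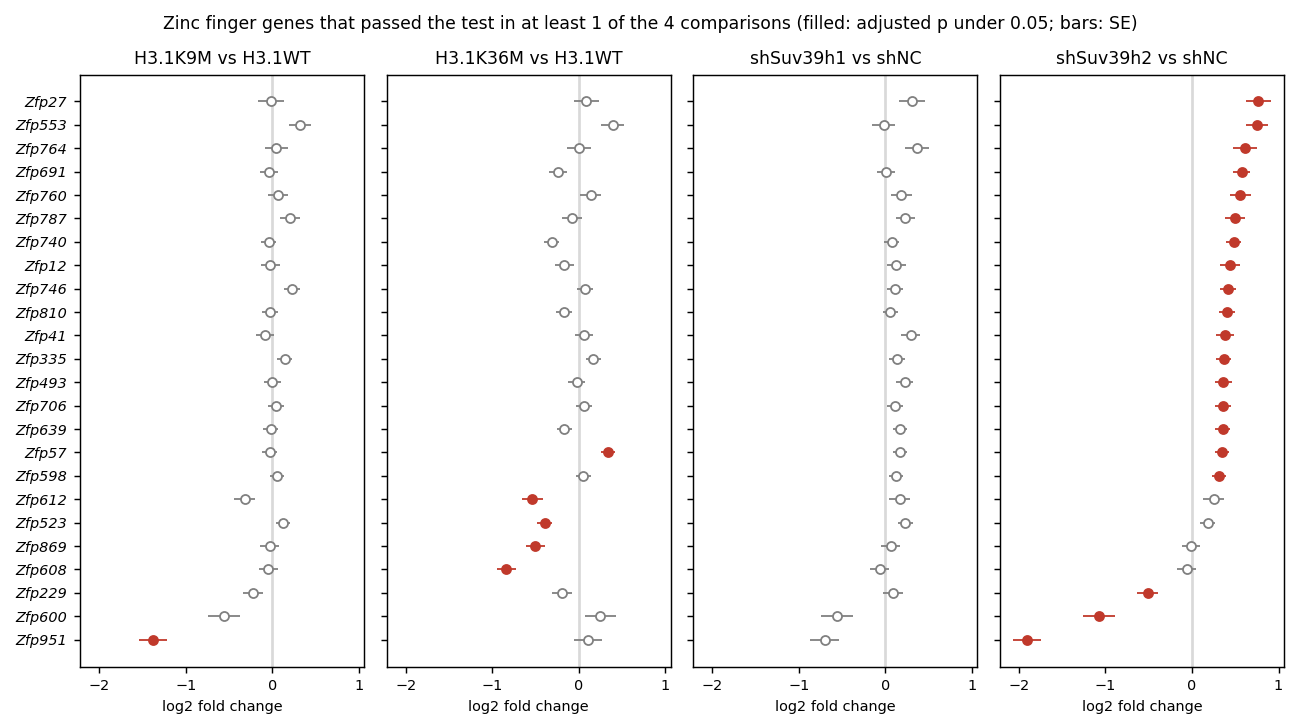
Log2 fold change on log2(FPKM + 1) with its standard error (horizontal) of the 24 Zfp genes that passed the test in at least 1 of 4 comparisons (rows, ordered by their change in shSuv39h2), one panel per comparison, filled red where the adjusted p is under 0.05. In shSuv39h2 17 filled points lie to the right of 0 and 3 to the left, Zfp951 is filled in H3.1K9M and in shSuv39h2, and nothing is filled in shSuv39h1.

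The count in shSuv39h2 rests on few libraries. It was 3 higher and 3 lower without shNC replicate 1, 3 and 1 without shSuv39h2 replicate 1, 1 and 2 without shSuv39h2 replicate 2 and 23 and 4 without shNC replicate 2, while median-of-ratios scaling gave 11 and 4 and quantile scaling 15 and 6. Over all tested genes median-of-ratios scaling gave 547 higher and 722 lower, against 701 and 615 as deposited. Calls over all tested genes also became fewer in both directions without shNC replicate 1 or either shSuv39h2 library. They became more in both directions without shNC replicate 2. shNC replicate 1 was the library with the lowest Zfp levels, with 246 Zfp genes at 1 FPKM or more, against 256 to 263 in the other 11, and a summed FPKM of 1872, against 1960 to 2119. Its fibroblast marker sum was 1439. Its part in the calls was not tested beyond leaving it out. The sum of the 10 stem cell markers was 5024 to 5215 FPKM in shSuv39h2, against 4219 to 4661 FPKM in shNC, with 3 called higher, and its part in the calls was not tested.

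Leaving it out kept the shift of the Zfp genes but made it smaller. Their median log2 change in shSuv39h2 was 0.13, against 0.041 for all tested genes, and 193 of 267 lay above 0, 72.3%, against 57.3%. Without shNC replicate 1 the medians were 0.077 and 0.024, with 173 above 0, and after median-of-ratios scaling 0.095 and 0.0040, with 180 above 0. In shSuv39h1, which shares the shNC libraries, the medians were 0.071 and 0.042, and in H3.1WT against the same shNC libraries 0.087 and 0.025. The share of Zfp genes above 0 was similar there, 73% in shSuv39h1, against 61.3% of all tested genes, and 71.5% in H3.1WT, against 55.8%. These comparisons share the shNC libraries. Among the 6 groups 100 Zfp genes, 37.5%, had their lowest group mean in shNC, against 21.6% of all tested genes.

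**Figure D5:**
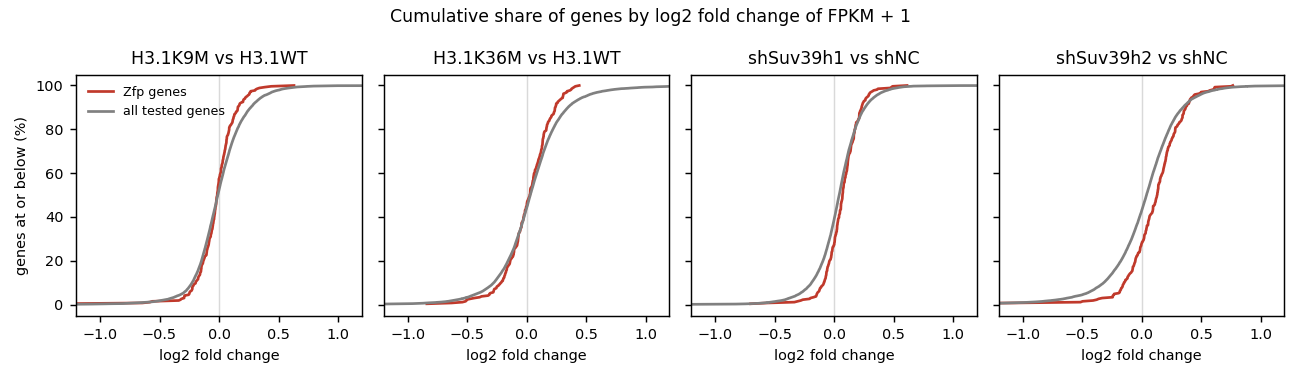
Cumulative share of genes (vertical, percent) at or below a log2 fold change on log2(FPKM + 1) (horizontal, cut at 1.2 on either side) for 267 Zfp genes (red) and 13109 tested genes (grey), in 4 comparisons. The Zfp curve is steeper than that of all tested genes in H3.1K9M and H3.1K36M and lies to its right in shSuv39h2, where the medians are 0.13 and 0.041, while Zfp951 in H3.1K9M and shSuv39h2 falls outside the axis.

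shSuv39h2 set directly against shSuv39h1 had 3 Zfp genes higher and 2 lower, where 2% and 4.56% of all tested genes were, or 1.87% of the Zfp genes against 6.56% in both directions. Its libraries lay above those of shSuv39h1 for 33.7% of the Zfp genes and below for 15.4%, against 28.7% and 30% of all tested genes. Zfp553 at 0.77 (limma, adjusted p = 0.0123), Zfp691 at 0.57 (adjusted p = 0.0153) and Zfp740 at 0.41 (adjusted p = 0.0285) were higher in shSuv39h2. Zfp951 at -1.21 (limma, adjusted p = 0.00472) and Zfp229 at -0.60 (adjusted p = 0.0191) were lower. None of the 5 overlapped between the groups, which adds nothing to calls made on the same libraries. Of 29 fibroblast markers 25 had a log2 change above 0, with a median of 0.46 and none called, and with their mean as a covariate 4 Zfp genes were higher and 2 lower. Leaving out any 1 of the 4 libraries left 0 higher, and 0 lower without shSuv39h1 replicate 1 and 1 lower without any other.

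The control lines H3.1WT and shNC, which differ in transgene and possibly in the scaling of their arms, showed no Zfp call, where 0.214% of all tested genes were called higher and 0.122% lower. Together 0.336% of all tested genes were called. At an unadjusted p under 0.05 there were 30 Zfp genes, 11.2%, against 11.4% of all tested genes. The H3.1WT libraries lay above those of shNC for 31.8% of the Zfp genes and below for 7.49%, against 23.1% and 16.3% of all tested genes. Leaving out shNC replicate 2 gave 2 higher. Zfp608 was at 2.03 and 2.17 FPKM in H3.1WT, against 1.05 and 1.08 FPKM in shNC, without overlap, yet it did not pass (log2 change 0.58, limma, adjusted p = 0.075). The 6 libraries of the knockdown arm lay between 0.884 and 1.08 FPKM, above the 0.780 and 0.687 FPKM of H3.1K36M, a level set across arms that may have been scaled apart.

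As a class the Zfp genes varied less across the groups than genes at large. The range of the 6 group means on log2(FPKM + 1) had a median of 0.32, against 0.39 for all tested genes, and was over 0.5 in 16.5% of Zfp genes, against 32.4%. Among genes of mean 1 to 5 FPKM the shares were 13.7% and 43.6%. Only Zfp951, Zfp600 and Zfp488 had a range over 1, which is 1.12%, against 4.97% of all tested genes. The replicates of a group were also closer for Zfp genes, with an SD of the log2 difference from 0.12 in H3.1K36M to 0.29 in H3.1K9M, against 0.22 and 0.41 for all tested genes.

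Several of the genes with a large range were variable within their groups. Zfp488, known in oligodendrocyte differentiation, was at 18.4 and 15.7 FPKM in shSuv39h2, against 11.2 and 10.4 FPKM in shNC (log2 change 0.61, limma, adjusted p = 0.247), and its H3.1K9M libraries were far apart at 13.7 and 6.10 FPKM. Zfp703 was at 11.2 and 6.20 FPKM in H3.1K9M, against 5.43 and 8.59 FPKM in H3.1WT, which overlap. Zfp36 was at 16.3 and 19.3 FPKM in H3.1K9M, against 9.01 and 13.7 FPKM in H3.1WT, which did not overlap but did not pass either (log2 change 0.63, limma, adjusted p = 0.351). Zfp367 was at 5.78 and 5.30 FPKM in H3.1K36M, against 11.2 and 7.40 FPKM in H3.1WT, without a call (log2 change -0.63, limma, adjusted p = 0.256). In H3.1K9M the higher library for Zfp703 was replicate 1, the library with a fibroblast marker sum of 3633, and the part of feeder RNA in that value was not tested.

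Of 34 members with a well-known role, 30 were among the genes followed here, and 4 of these were called in a comparison with the controls, Zfp57, Zfp335, Zfp598 and Zfp706, as given above. No regulator of the pluripotent state other than Zfp706 was called against its control. Zfp281, which restrains Nanog with a deacetylase complex, averaged 17.1 ± 1.94 FPKM in H3.1K9M and 21.5 ± 0.626 FPKM in H3.1K36M, against 17.2 ± 0.0822 FPKM in H3.1WT (SD, n = 2 each). Zfp462, which keeps heterochromatin with the G9a complex, averaged 7.80 ± 0.0289 FPKM in H3.1K9M and 8.11 ± 0.26 FPKM in H3.1K36M, against 6.42 ± 1.12 FPKM in H3.1WT. Zfp296 was at 22.1 and 29.6 FPKM in shSuv39h2, against 19.9 and 26.2 FPKM in shNC, which overlap. Zfp217, a partner of the RNA methyltransferase Mettl3, had a range of its group means of 0.35 on the log2 scale. That of Zfp143, which binds promoters and loop anchors, was 0.39. The median range was 0.32 over all Zfp genes and 0.39 over all tested genes.

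Of the well-known members with the KRAB pattern, Zfp57 alone was called against a control. Zfp568, which silences a placental Igf2 transcript, ranged from 16.9 to 25.3 FPKM over the 12 libraries, and Zfp932, which represses endogenous retroviruses, from 5.79 to 8.48 FPKM. Zfp819, likewise linked to retroviral repression, averaged 9.41 ± 0.186 FPKM in shSuv39h2 and 8.84 ± 2.66 FPKM in shSuv39h1, against 5.88 ± 0.61 FPKM in shNC, and neither passed (limma, adjusted p = 0.142 and 0.508). Zfp708, with a mean of 1.09 FPKM, was close to the limit of inclusion, and 100% of its windows recurred in other genes. The neurotrophin receptor partners Zfp110 and Zfp369 had log2 changes of 0.37 and 0.45 in shSuv39h2 and missed the threshold (limma, adjusted p = 0.0772 and 0.081).

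Among the well-known members without the KRAB pattern, Zfp335, Zfp598 and Zfp706 rose in shSuv39h2, as given above. Of the 17 genes that rose there 11 lacked the pattern, as did 130 of the 266 Zfp genes with a protein, by a search that can miss boxes. The following did not pass. Zfp592 and Zfp687, which share a zinc finger complex, had log2 changes of 0.20 and 0.33 in shSuv39h2 (limma, adjusted p = 0.379 and 0.184). Zfp423, a partner of Ebf factors, had one of 0.50 (adjusted p = 0.105), and Zfp91, a ubiquitin ligase, one of 0.30 (adjusted p = 0.327). Zfp516, a regulator of brown fat, was at 4.26 and 4.06 FPKM in H3.1K36M, against 6.26 and 6.08 FPKM in H3.1WT, without overlap but short of the threshold (log2 change -0.47, limma, adjusted p = 0.0619). Zfp326 and Zfp318, which act in RNA splicing and processing, had a range of group means of 0.34 and 0.20. Those of Zfp131 and Zfp148 were 0.36 and 0.37, beside a median of 0.32 over all Zfp genes. For Zfp503 the H3.1K9M libraries, at 3.44 and 1.57 FPKM, overlapped those of H3.1WT, at 1.04 and 2.04 FPKM.

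The proteins that work with KRAB factors were followed as a list of 20, headed by Trim28 at 511 FPKM and Setdb1 at 22.3 FPKM as means over all libraries. Against the control of its arm, none was called in H3.1K9M or shSuv39h1, 1 was lower in H3.1K36M and 1 in shSuv39h2, and none was higher. Of all tested genes 0.313% were called in H3.1K9M and 0.145% in shSuv39h1. In H3.1K36M 1.74% of all tested genes were called lower, and in shSuv39h2 4.69%. Dnmt3a, a DNA methyltransferase, averaged 20.2 ± 0.0791 FPKM in H3.1K36M, against 27.8 ± 0.2 FPKM in H3.1WT (limma, adjusted p = 0.0473), and Atf7ip, the partner of Setdb1, 15.1 ± 0.435 FPKM in shSuv39h2, against 18.6 ± 0.615 FPKM in shNC (limma, adjusted p = 0.0466). Trim28 had a log2 change of 0.02 and Setdb1 of 0.03 in shSuv39h2. In H3.1K36M against H3.1K9M, 2 of the list were higher and none lower, where 5.57% and 2.67% of all tested genes were. These were Setdb1 (limma, adjusted p = 0.0482) and Morc3 (limma, adjusted p = 0.0499). Other zinc finger families named by symbol had 9 Zkscan, 10 Zscan (the Zscan4 genes were left out), 32 Zbtb and 14 Klf genes tested. None of these Zkscan and Zscan genes was called, and 4 Zbtb and 3 Klf genes were higher in shSuv39h2, 1 of each in H3.1K36M, and none lower in either. Of all tested genes 5.35% were called higher and 4.69% lower in shSuv39h2, and 3.1% and 1.74% in H3.1K36M. The families are small, so these counts are a description with no test between them.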

How the data were processed

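RNA was sequenced from 12 libraries, and the authors deposited 1 table of FPKM values per library, with the unit inferred from the values and from Cuffdiff. Per the submitters' processing notes the build was mm10 and the tools included TopHat2 2.0.13 and Cuffdiff 2.2.1, but no source used here gives their settings, the scaling between libraries, the annotation or the strandedness. Overlapping and antisense genes therefore cannot be told apart, and near-identical copies share fragments by an unknown rule. FPKM values are not counts, so log2(FPKM + 1) was modelled with limma (version 3.58.1, R 4.3.3), its prior variance following the mean. The fit held all 6 groups and 13109 genes at 1 FPKM or more in at least 2 libraries. Benjamini-Hochberg adjusted p-values were taken over all of these genes for each comparison and called under 0.05.

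Depth was estimated from the steps of low values, of which 26.6% to 32.8% came out whole within 0.05, against 10% by chance, so it is approximate. Fingers, the KRAB pattern and shared 100-base windows were computed from GENCODE transcripts of GRCm38 (the build of mm10), with the protein translated from the longest coding one, and promoters came from RefSeq. Groups came from the sample titles. Same-numbered libraries of compared groups had correlations of their deviations from -0.384 to 0.383, and the labels tie the numbers to nothing further. The genes, lists and tests were chosen with earlier results of these data known. The text names Zfp951 and Zfp600, called genes (the 10 with the largest change where more were called), the 10 highest, the 8 with the largest range, those nearest the limit, well-known members and, where none was called, the 4 smallest p. The tests were run on simulated data with changes of 1 or 2 log2 units planted in genes at higher levels. At 1 log2 unit 81 to 90 of 100 were recovered, with 6 to 19 calls that were not planted. Smaller changes, such as those of most called Zfp genes, and changes in genes at low levels were not covered. Alternatives were a pseudocount of 0.1, no filter on low values, median-of-ratios and quantile scaling, array weights, a replicate block, fits within an arm, leaving out each library and, chosen after seeing the data, a fibroblast marker covariate.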

Additional observations from a re-analysis of the deposited data

How the results depend on the processing

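Counts of Zfp genes called higher or lower moved by more than 1.5 times under these alternatives. In H3.1K9M the 1 lower gene became 0 with a pseudocount of 0.1 FPKM, with no filter on low values, with array weights and with the arm alone. Over all tested genes the 38 lower became 31, 12, 1 and 2 in that order. In H3.1K36M the 1 higher gene became 0 with no filter, with median-of-ratios or quantile scaling and with the arm alone, 2 with the fibroblast marker covariate and 16 with weights, and the 4 lower became 15 with weights and 1 with the arm alone. Calls over all tested genes went from 406 higher and 228 lower to 1814 and 1169 with weights and 130 and 61 with the arm alone. The covariate gave 329 and 197. In shSuv39h2 the 17 higher became 11 with median-of-ratios scaling, 6 with weights, 4 with the arm alone and 28 with the covariate, and the 3 lower became 6 with quantile scaling or the covariate. Calls over all tested genes went from 701 higher and 615 lower to 445 and 415 with weights and 450 and 411 with the arm alone. The covariate gave 1188 and 968, and quantile scaling 554 and 653. In H3.1K36M against H3.1K9M the 5 lower became 3 with weights, 2 with the arm alone and 9 with the covariate. Over all tested genes the 350 lower became 142, 144 and 732 in that order. In shSuv39h2 against shSuv39h1 the 3 higher became 11 with weights and 1 with the arm alone, and the 2 lower became 9 with weights, 4 with the replicate block and 1 with the arm alone. Over all tested genes the 262 higher became 797 with weights and 102 with the arm alone. The 598 lower became 1306 with weights, 590 with the block and 265 with the arm alone. In H3.1WT against shNC the 0 higher became 3 with the covariate, where the 28 higher of all tested genes became 92. The causes were not tested, except that fits within an arm hold fewer libraries. Leaving out 1 library gave 0 to 1 higher and 0 to 2 lower in H3.1K9M, 0 higher and 0 to 1 lower in H3.1K36M, 0 to 1 higher and 0 lower in shSuv39h1, 1 to 23 higher and 1 to 4 lower in shSuv39h2, 1 to 9 higher and 1 to 10 lower in H3.1K36M against H3.1K9M, 0 higher and 0 to 1 lower in shSuv39h2 against shSuv39h1 and 0 to 2 higher and 0 lower in H3.1WT against shNC.

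With the replicate block, whose numbers pair nothing in the labels, shSuv39h2 had 18 higher and 4 lower, H3.1K36M 1 and 5, H3.1K9M 0 and 1 and shSuv39h1 0 and 0. The values of single genes counted next include results that were not called as reported and had no call to lose. These were Zfp600 in H3.1K9M, H3.1K36M and shSuv39h1, and Zfp951 in H3.1K36M and shSuv39h1. The share of calls kept is thus lower than the share of all values kept. Of 372 values of single genes under an alternative, 243 kept direction and call, 128 lost the call, 0 gained one and 1 reversed, Zfp951 in H3.1K36M with the covariate, at -0.033 (limma, adjusted p = 0.95) against 0.11.
Depth limits the lowest levels, such as Zfp951 in shSuv39h2, which rested on about 13 and 42 fragments.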
